A study of Mus musculus with 6 samples.

Results

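The genes examined here are 10 that encode surface proteins through which antigen-presenting cells stimulate or restrain T cells and other leukocytes. They comprise the B7-family ligands Cd80, Cd86, Icosl, Cd274 and Pdcd1lg2, the TNF-family ligands Tnfsf4, Tnfsf9 and Cd70, the TNF receptor family member Cd40, and Cd200. They were taken by gene symbol, and all 10 were found among the 24346 genes listed for each library. The name "costimulatory ligands" does not cover every one of them: Cd40 encodes a receptor, Cd274 and Pdcd1lg2 encode ligands of the inhibitory receptor PD-1, and Cd200 encodes an inhibitory ligand for myeloid cells. Transcript levels were measured by RNA sequencing in mouse CD11c+ cells, which were sorted magnetically from spleen. CD11c is an integrin chain of dendritic cells that some macrophages and lymphocytes also carry. In 3 libraries the cells were treated with IL-33, an alarmin cytokine of the IL-1 family, and in 3 with PBS, the vehicle. Neither group is labelled with a genotype, strain, age, dose or time, and whether treatment took place in the animal or in culture is not given. Separate animals are not named for the replicates of either group, so p-values describe the scatter of these 6 libraries alone, part of which may be technical.

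T cells need a signal beside antigen in order to respond. CD80 and CD86 give that signal through CD28 and lose it to CTLA-4, which binds them more strongly, while ICOS ligand acts on ICOS, a relative of CD28 found on activated and follicular helper T cells. PD-L1 (Cd274) and PD-L2 (Pdcd1lg2) restrain T cells through PD-1. CD40 on the dendritic cell receives CD40 ligand from T cells and drives maturation, and OX40 ligand (Tnfsf4), 4-1BB ligand (Tnfsf9) and CD70 sustain T cells through OX40, 4-1BB and CD27.

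IL-33 treatment went with unequal changes across these genes. Pdcd1lg2 rose 1.82-fold, while Icosl, Cd40 and Cd200 fell to 0.64, 0.76 and 0.682 of their PBS level. Cd80, Cd86, Cd274 and Tnfsf9 did not pass the test. Tnfsf4 was low but higher in every IL-33 library, and Cd70 was close to the limit of detection. Values are in FPKM, a fragment count divided by transcript length and by sequencing depth, which lets levels be compared between genes. A change is the mean log2(FPKM + 1) of the IL-33 libraries less that of the PBS libraries, given with its standard error (SE). Testing was by limma on 11518 genes that reached 1 FPKM in 3 or more libraries, with Benjamini-Hochberg adjustment over all of them and a threshold of 0.05.

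Of the 10 genes, 8 passed that expression filter, of which 1 rose, 3 fell and 4 did not pass the test. Among all genes tested, 28% rose and 25.5% fell, 53.6% in all, so the count of 4 in 8 is near the background. The same 4 genes, 1 higher and 3 lower, were those of the 8 whose groups did not overlap, against 63.6% of all genes tested (32.7% higher and 30.9% lower). The median change of the 8 genes was 0.09 and that of all tested genes 0.01. The sum of FPKM was higher in the IL-33 libraries (778391 to 841884) than in the PBS libraries (614522 to 641412), so values were also rescaled to equal totals, which moved the median change of all genes to -0.29 and called 61.8% of them, 11.1% higher and 50.7% lower. Under it 1 of the 8 genes was again higher and 3 lower. That scaling turned the median of the 8 genes to -0.24, and quantile normalization and cyclic loess turned it to -0.04 and -0.06. The calls of Pdcd1lg2, Icosl, Cd40 and Cd200 held under each of these scalings and with any 1 library left out. Read depth, relative to PBS replicate 1, was 0.946 to 1.07 in the IL-33 libraries and 1 to 1.22 in the PBS libraries.

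**Figure D1:**
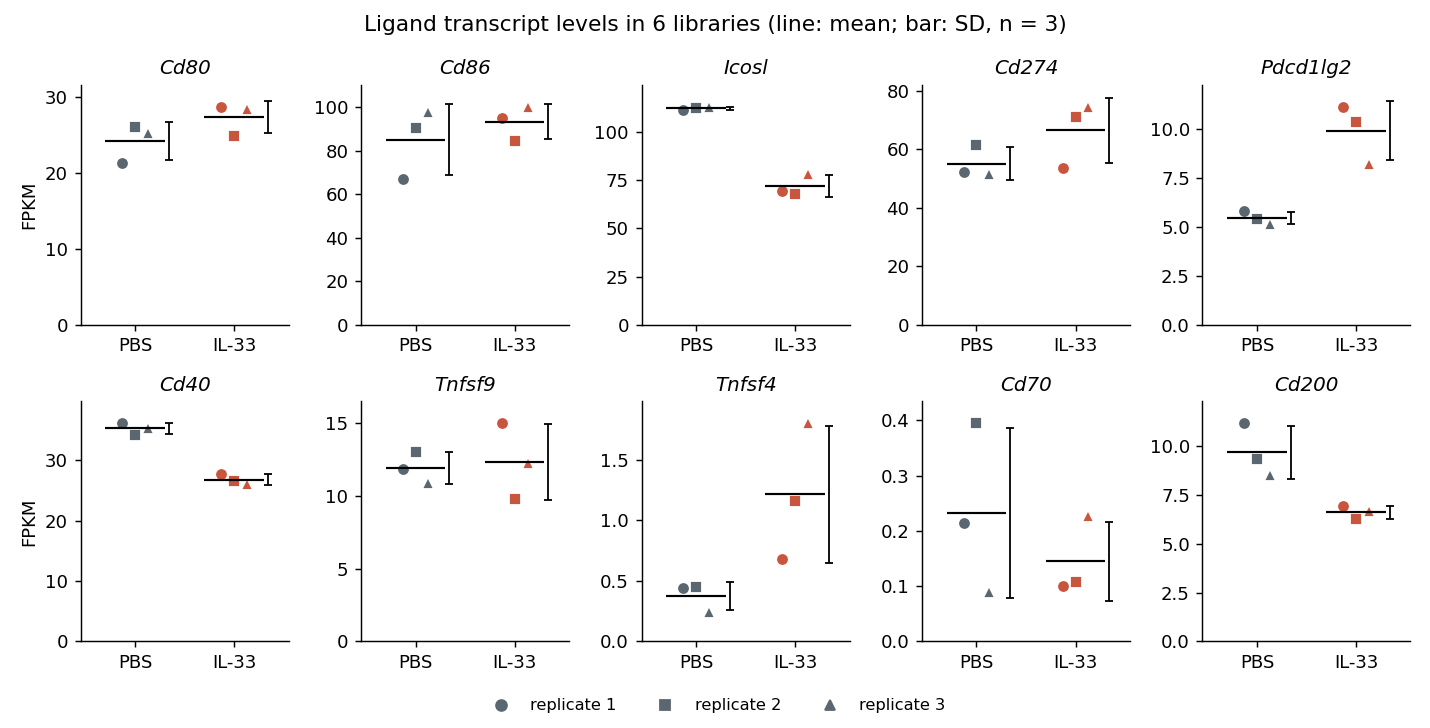
FPKM of each of the 10 genes (vertical axis, starting at 0) in the 3 PBS and 3 IL-33 libraries; symbols mark the replicate number, the line is the group mean and the bar the SD (n = 3). The groups lie apart for Icosl, Cd40, Cd200, Pdcd1lg2 and Tnfsf4 and overlap for the other 5.

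The sorted cells carried the defining transcripts of dendritic cells in every library, with Itgax, which encodes CD11c, at 228 to 300 FPKM and the MHC class II gene H2-Ab1 at 4396 to 8035 FPKM. All 7 listed general dendritic cell markers passed the test, 4 of them higher with IL-33 (Itgax, H2-Aa, H2-Ab1 and H2-Eb1) and 3 lower (Flt3, Zbtb46 and Ciita), against 2 higher and 3 lower with equal totals. Transcripts of other cells were present as well. The summed FPKM of 10 B cell markers was 337 to 819 with PBS and 370 to 500 with IL-33, and that of 10 T cell markers 145 to 365 and 51.0 to 77.8. All 7 NK cell markers fell, with sums of 333 to 373 FPKM with PBS and 113 to 218 FPKM with IL-33. Summed markers of other cells were higher with IL-33, from 42.4 to 67.0 FPKM up to 261 to 396 FPKM for eosinophils, from 472 to 781 FPKM up to 1207 to 2432 FPKM for neutrophils and from 131 to 178 FPKM up to 408 to 438 FPKM for plasma cells. Several of those markers were under 1 FPKM in every PBS library and passed the expression filter only through the IL-33 group, so their calls are not counted here. The markers of conventional dendritic cell subsets were split, with 2 higher and 4 lower of 7 for cDC1 and 2 higher and 3 lower of 8 for cDC2. In bulk RNA, fewer cells of a type and less RNA per cell cannot be told apart, and this holds for every change given here.

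Among the ligands of CD28 and CTLA-4, neither Cd80 nor Cd86 passed the test. Cd86, the CD28 ligand that resting dendritic cells carry (chr16:36603869-36666081 in mm10, minus strand), stood at 66.8, 90.3 and 97.9 FPKM in PBS replicates 1, 2 and 3 and at 95.01, 84.5 and 100.2 FPKM in the IL-33 replicates. The groups overlapped, and PBS replicate 1 was the lowest library. The change was 0.15 (SE 0.14, 95% interval -0.19 to 0.48, limma adjusted p = 0.416). It was -0.016 without PBS replicate 1, and it turned to -0.19 with equal totals, -0.13 with quantile normalization and -0.14 with cyclic loess.

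Cd80, the CD28 ligand that is induced on maturation (chr16:38455561-38496335, plus strand), was at 21.3, 26.0 and 25.2 FPKM with PBS and at 28.7, 24.8 and 28.4 FPKM with IL-33. Its groups overlapped as well, since IL-33 replicate 2 lay below PBS replicates 2 and 3. The change was 0.17 (SE 0.10, 95% interval -0.06 to 0.40, limma adjusted p = 0.176), and it was 0.085 without PBS replicate 1 and -0.16 with equal totals. Cd80 stood at 25.7% to 31.9% of the level of Cd86 with PBS and at 28.4% to 30.2% with IL-33, and the log2 ratio of Cd80 to Cd86 differed by 0.02 between the groups (exact two-sided permutation p = 0.8, n = 3 per group; 0.8 after adjustment over the 4 ratios tested). PBS replicate 1, the lowest library for both genes, was also the lowest of the 6 for 7 of 10 macrophage markers, whose summed FPKM was 1774 there and 2416 to 3421 in the other libraries. Among the PBS libraries, replicate 1 was also lowest for the summed general dendritic cell markers (13639 FPKM against 14989 and 15179 FPKM). The same held for the summed genes of mature migratory dendritic cells (1033 FPKM against 1189 and 1209 FPKM). The part of macrophage or dendritic cell transcripts in the level of Cd80 and Cd86 was not tested.

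Icosl had the smallest adjusted p of the set. ICOS ligand supports follicular helper and regulatory T cells, and B cells express it beside dendritic cells (chr10:78069302-78083913, plus strand). Its level was 111, 112 and 113 FPKM in the PBS replicates and 69.5, 67.9 and 78.2 FPKM in the IL-33 replicates. The highest IL-33 library was far below the lowest PBS library, and the PBS libraries hardly differed from each other. Icosl fell by 0.64 on the log2 scale (SE 0.07, limma adjusted p = 0.000731), and by 0.60 to 0.98 over the alternatives.

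Among the PBS libraries all 10 B cell markers were highest in replicate 1, where their sum was 819 FPKM against 448 and 337 FPKM in replicates 2 and 3. Of these 10 markers 3 fell with IL-33 (Cr2, Cd22 and Fcer2a) and 7 did not pass the test. Icosl fell by 0.64 with PBS replicate 1 left out. The part of B cell transcripts in the fall of Icosl was not tested. Relative to Cd86 in the same library, Icosl stood at 115% to 167% with PBS and at 73.2% to 80.4% with IL-33. That log2 ratio was 0.78 lower with IL-33, with groups that did not overlap (exact permutation p = 0.1, the smallest that 3 against 3 libraries allow, 0.2 after adjustment over the 4 ratios).

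The gene whose profile over the 6 libraries was nearest to that of Icosl was Zbtb46, a transcription factor of conventional dendritic cells and a listed dendritic cell marker. Likeness was measured as the Euclidean distance between centred log2(FPKM + 1) values over the 6 libraries, and it was 0.0399 for Zbtb46. The next genes, Zdhhc17 and Morc2a, were at 0.112 and 0.118. Zbtb46 stood at 36.1, 37.6 and 36.9 FPKM in the PBS replicates and at 22.5, 22.3 and 25.8 FPKM in the IL-33 replicates. The ratio of Icosl to Zbtb46 was therefore nearly the same in all 6 libraries, from 2.99 to 3.09. This follows from the way Zbtb46 was picked, as the nearest profile among the tested genes, and is not a separate result. Both genes were lowest in IL-33 replicate 2 and highest, within that group, in replicate 3.

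**Figure D2:**
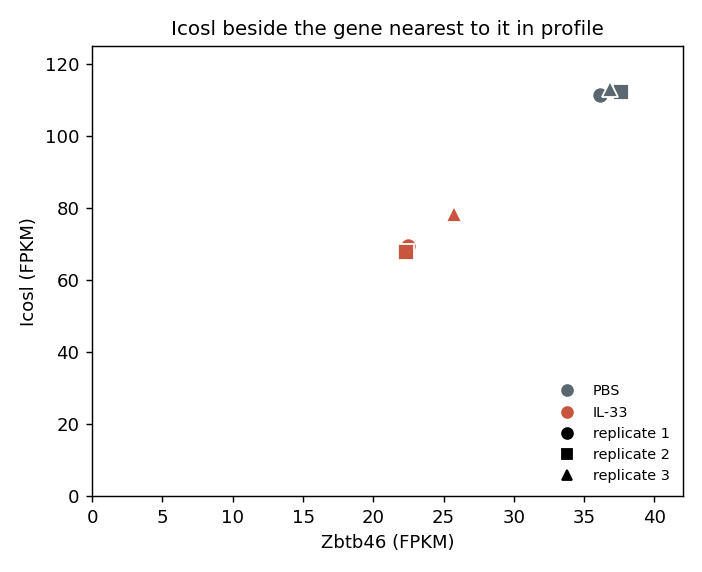
Icosl (vertical axis, FPKM) against Zbtb46 (horizontal axis, FPKM), 1 point per library, with colour for the treatment and symbol for the replicate number; both axes start at 0. The IL-33 libraries sit at 67.9 to 78.2 FPKM of Icosl and the PBS libraries at 111 to 113 FPKM, with a ratio to Zbtb46 of 2.99 to 3.09 throughout.

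The ligands of PD-1 are encoded by neighbouring genes on chromosome 19 with 22823 bases and no other annotated gene between them. Pdcd1lg2 passed the test and Cd274 did not. The groups overlapped in the ratio of the 2 genes, given below, so a difference between their changes was not established. Their upstream sequences are shown because the pair shares a locus. Each run below is the 250 bases before the RefSeq transcription start, 5′ to 3′ on the plus strand of GRCm38.p6 (the assembly called mm10), at chr19:29410669-29410918 for Pdcd1lg2 and chr19:29367188-29367437 for Cd274. Capitals mark matches to the motifs named after the sequences.
Pdcd1lg2: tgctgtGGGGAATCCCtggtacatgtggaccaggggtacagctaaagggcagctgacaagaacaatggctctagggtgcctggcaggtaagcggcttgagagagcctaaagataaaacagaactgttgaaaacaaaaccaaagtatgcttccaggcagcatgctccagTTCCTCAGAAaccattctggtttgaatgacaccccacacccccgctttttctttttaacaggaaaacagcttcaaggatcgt
Cd274: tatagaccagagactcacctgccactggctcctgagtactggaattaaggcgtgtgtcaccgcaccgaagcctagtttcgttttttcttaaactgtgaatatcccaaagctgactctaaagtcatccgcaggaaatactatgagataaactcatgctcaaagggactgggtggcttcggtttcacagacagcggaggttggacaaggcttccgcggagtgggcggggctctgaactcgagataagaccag
The window of Pdcd1lg2 held a match to the kappaB pattern, GGG and CC with 5 bases of any kind between them on either strand, from base -244 to -235, and a match to the STAT6 pattern, TTC and GAA with 4 bases between them, from base -82 to -73, counted back from the start. The 2 matches do not overlap. Among 32851 RefSeq promoter windows of that length, 45.8% held the kappaB pattern and 5.85% the STAT6 pattern. The window of Cd274 held neither of them, nor TTC and GAA with 3 bases between them, the GAS pattern (7.02% of windows), nor GAAA and GAAA with 2 bases between them on either strand, the ISRE pattern (2.98%). A match describes the letters and does not mark a bound site, and the absence of a match says only that these letters are not in this window. RefSeq promoter entries were matched for 5 of the 10 genes, and of these Cd80 and Icosl also held the kappaB pattern, while Cd200 held none of the 4.

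Pdcd1lg2, which encodes PD-L2, a ligand of dendritic cells and macrophages (chr19:29410919-29471161, plus strand), was at 5.80, 5.403 and 5.15 FPKM in the PBS replicates and at 11.1, 10.4 and 8.22 FPKM in the IL-33 replicates. All IL-33 libraries lay above all PBS libraries, with IL-33 replicate 3 the lowest of them. Pdcd1lg2 rose by 0.75 (SE 0.11, 95% interval 0.48 to 1.02, limma adjusted p = 0.00194). With equal totals the rise was 0.45 (limma adjusted p = 0.0101), the smallest over the alternatives, and with cyclic loess 0.87. The annotation places A930007I19Rik on the opposite strand within the gene, and it was listed at no more than 0.129 FPKM in any library.

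The profiles nearest to that of Pdcd1lg2 belonged to Nme1, a nucleoside diphosphate kinase gene (distance 0.0687), Sept5 (0.109) and Arl11 (0.147). Of 7 tested monocyte markers 2 rose (Ccr2 and F13a1) and 2 fell (Ly6c2 and Ace), and of 10 macrophage markers 1 rose (C1qa) and none fell, but none of either list was called higher with equal totals. The summed FPKM of the monocyte markers was 1375 to 1836 with PBS and 1610 to 1741 with IL-33, so these ranges overlapped. The part of monocyte and macrophage transcripts in the rise of Pdcd1lg2 was not tested.

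Cd274, the PD-L1 gene, which many leukocytes express (chr19:29367455-29388095, plus strand), stood at 52.4, 61.5 and 51.5 FPKM with PBS and at 53.7, 71.2 and 74.6 FPKM with IL-33. IL-33 replicate 1 fell within the PBS range, and the other IL-33 libraries lay above it. The change was 0.26 (SE 0.13, 95% interval -0.06 to 0.57, limma adjusted p = 0.145). Without IL-33 replicate 1 it was 0.40 and passed the test (limma adjusted p = 0.0207, while the other alternatives gave 0.106 to 1), and with equal totals it turned to -0.080. The annotation places AC119228.1 on the opposite strand over the gene.

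Within the IL-33 group the libraries stood in opposite order for the PD-1 ligands, with replicate 1 the highest for Pdcd1lg2 and the lowest for Cd274. PD-L2 transcript amounted to 20.7%, 14.6% and 11.02% of PD-L1 transcript in the IL-33 replicates, and to 11.1%, 8.78% and 10.01% in the PBS replicates. IL-33 replicate 3 thus fell within the PBS range. The log2 ratio of Pdcd1lg2 to Cd274 was 0.49 higher with IL-33, and the groups overlapped (exact permutation p = 0.2, 0.267 after adjustment over the 4 ratios). The difference was 0.27 without IL-33 replicate 1 and 0.70 without IL-33 replicate 3.

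Cd40, the receptor through which T cell help reaches dendritic cells and B cells (chr2:165055627-165072948, plus strand), was at 36.1, 34.3 and 35.4 FPKM with PBS and at 27.8, 26.6 and 26.1 FPKM with IL-33. Both groups were tight, and they did not overlap. Cd40 fell by 0.38 (SE 0.06, 95% interval -0.53 to -0.24, limma adjusted p = 0.0023), a small change measured with the smallest SE of the 8 genes. Its nearest profiles were those of Rbm12b2 (distance 0.0586), Wwc2 (0.0609) and Tle4 (0.0709). Among the PBS libraries Cd40 was highest in replicate 1, as were all 10 B cell markers, and the fall was 0.37 with that library left out. The part of B cell transcripts in the fall of Cd40 was not tested.

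The TNF-family ligands were the least abundant of the set, apart from Tnfsf9. Tnfsf9, the 4-1BB ligand of activated antigen-presenting cells (chr17:57105325-57107757, plus strand), stood at 11.9, 13.04 and 10.9 FPKM with PBS and at 15.0, 9.77 and 12.3 FPKM with IL-33. The IL-33 libraries included both the highest and the lowest value of all 6. The change was 0.03 (SE 0.15, 95% interval -0.31 to 0.37, limma adjusted p = 0.872), and its sign turned with equal totals (-0.28), dendritic cell marker scaling (-0.024), library weights (-0.12) and 2 single libraries left out. Gm11110 overlaps it on the opposite strand at 1.23 to 2.83 FPKM, and whether reads were counted by strand is not given in the sources used here.

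Tnfsf4, the OX40 ligand gene, whose product is linked to type 2 helper responses (chr1:161395409-161418410, plus strand), reached 1 FPKM only in IL-33 replicates 2 and 3 and so stayed under the filter. It was listed at 0.438, 0.447 and 0.24 FPKM in the PBS replicates and at 0.68, 1.16 and 1.80 FPKM in the IL-33 replicates. The groups did not overlap. Corrected for relative depth, these values were whole multiples of a common step, within 0.1 of a whole number, and they amounted to 9, 10 and 6 steps with PBS and 15, 24 and 35 steps with IL-33. If a step is 1 fragment, the gene rests on 25 fragments in the PBS group and 74 in the IL-33 group. In a fit of all 17265 genes above 0 in any library, the change was 0.66 (SE 0.19, limma adjusted p = 0.0367), and 35.5% of genes were called in that fit, 18.5% higher and 17% lower. The mean level was 3.23-fold higher with IL-33.

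Cd70, the ligand of CD27 (chr17:57145997-57149777, minus strand), was listed at 0.215, 0.395 and 0.0884 FPKM with PBS and at 0.1, 0.106 and 0.227 FPKM with IL-33. These correspond to 2, 4 and 1 steps with PBS and to 1, 1 and 2 steps with IL-33. A difference between the groups was not detectable at this depth (limma adjusted p = 0.465 in the fit with no filter).

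Cd200, an inhibitory surface protein of B cells, activated T cells and some dendritic cells (chr16:45382135-45409053, minus strand), stood at 11.2, 9.36 and 8.54 FPKM with PBS and at 6.92, 6.25 and 6.67 FPKM with IL-33. The IL-33 libraries were close together and below all PBS libraries, which were more spread. Cd200 fell by 0.48 (SE 0.10, 95% interval -0.73 to -0.24, limma adjusted p = 0.00704). The PBS libraries stood in the same order for Cd200 as for the summed B cell markers and the summed plasmacytoid dendritic cell markers. The plasmacytoid sums were 535, 462 and 357 FPKM in PBS replicates 1, 2 and 3 and 334 to 432 FPKM with IL-33. Single markers differed, as Ccr9 and Klk1 were highest in PBS replicate 2. Ly6d, a large part of the sum (217, 148 and 111 FPKM in the PBS replicates), did not pass the test. Of 7 plasmacytoid markers 5 fell, and all 10 T cell markers fell. The part of these cells in the fall of Cd200 was not tested, and the fall was 0.39 with PBS replicate 1 left out (limma adjusted p = 0.0156). Relative to Cd86, Cd200 went from 8.72% to 16.7% with PBS to 6.66% to 7.39% with IL-33, a log2 ratio 0.63 lower (exact permutation p = 0.1, the smallest possible, 0.2 after adjustment over the 4 ratios). Without PBS replicate 1 that difference was -0.37.

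**Figure D3:**
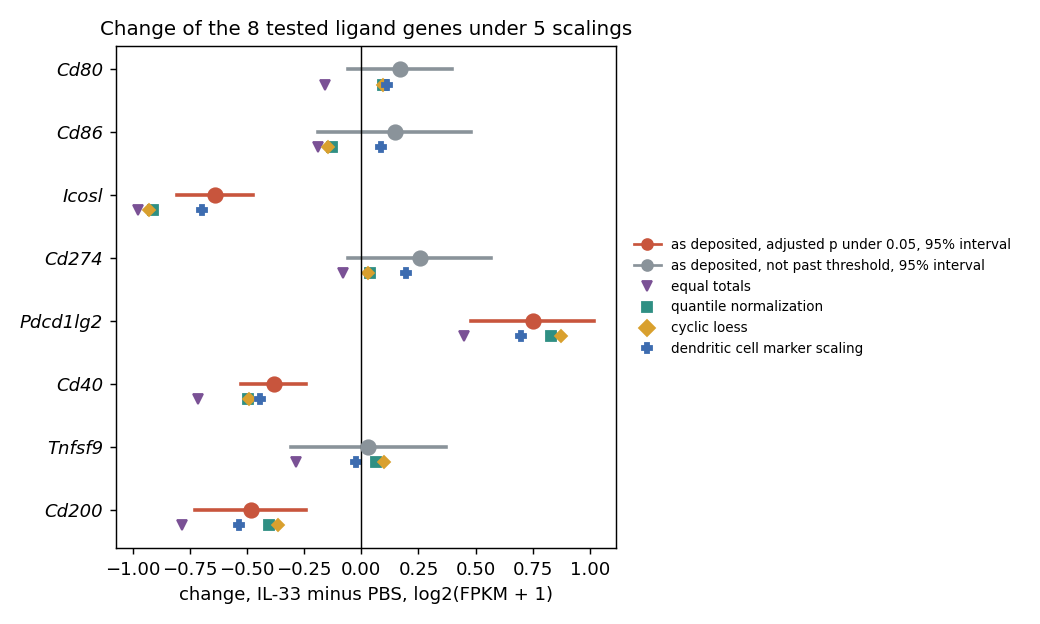
Change of the 8 tested genes (horizontal axis, IL-33 minus PBS, log2(FPKM + 1)), with large circles and 95% intervals for values as deposited and small symbols for 4 other scalings. Pdcd1lg2 lies above 0 and Icosl, Cd40 and Cd200 below 0 under all 5 scalings, whereas Cd80, Cd86, Cd274 and Tnfsf9 lie on both sides.

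Because FPKM is scaled to length, the levels of the 10 genes can be put in order. With PBS, Icosl was the most abundant (111 to 113 FPKM), followed by Cd86 (66.8 to 97.9 FPKM), Cd274 (51.5 to 61.5 FPKM), Cd40, Cd80, Tnfsf9, Cd200, Pdcd1lg2, Tnfsf4 and Cd70. Neighbours in that order had separate ranges except Tnfsf9 with Cd200 and Tnfsf4 with Cd70. With IL-33, Cd86 led (84.5 to 100.2 FPKM), and Icosl (67.9 to 78.2 FPKM) overlapped with Cd274 (53.7 to 74.6 FPKM). Cd80 and Cd40 overlapped in the IL-33 libraries, as did Tnfsf9 and Pdcd1lg2. Cd200 ranked above Pdcd1lg2 with PBS (8.54 to 11.2 against 5.15 to 5.80 FPKM) and below it with IL-33 (6.25 to 6.92 against 8.22 to 11.1 FPKM).

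The summed level of the 10 genes was 318 to 353 FPKM with PBS and 303 to 337 FPKM with IL-33, so the ranges overlapped. Within that sum, Icosl made up 31.8% to 35.1% in the PBS libraries and 22.4% to 23.2% in the IL-33 libraries. Cd86 made up 21.0% to 28.1% and 27.9% to 30.8%, which overlap slightly, and Cd274 14.8% to 17.4% and 17.4% to 23.5%. Cd40 went from 9.71% to 11.4% with PBS to 7.75% to 9.01% with IL-33. Pdcd1lg2 remained a small part, with 1.48% to 1.83% and 2.44% to 3.61%.

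**Figure D4:**
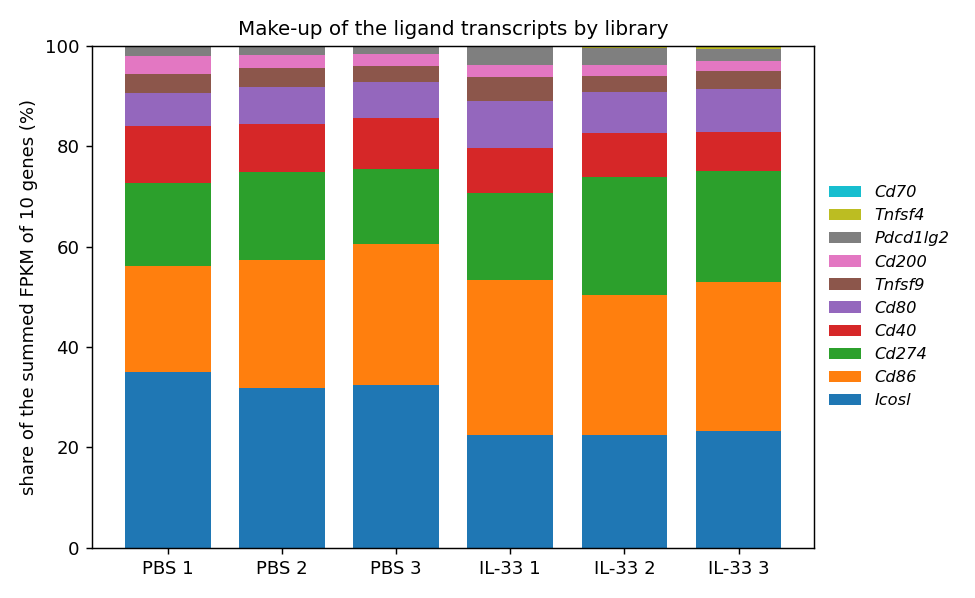
Share of each gene in the summed FPKM of the 10 genes (vertical axis, percent), 1 bar per library. The Icosl segment is 31.8% to 35.1% in the PBS bars and 22.4% to 23.2% in the IL-33 bars.

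The receptors that these ligands bind were measured in the same libraries, where lymphocytes and other cells left in the sort can carry them. Of 9 tested genes on the list of counter-receptors 3 rose and 4 fell, with a median change of -0.30 against 0.01 for all genes. Ctla4, the inhibitory receptor for CD80 and CD86, rose from 3.09 ± 0.67 to 9.38 ± 1.57 FPKM (SD, n = 3 per group), whereas Cd28, named after its values were seen, fell from 5.78 ± 1.44 to 2.77 ± 0.61 FPKM. Tnfrsf4, which encodes the OX40 receptor, rose from 7.47 ± 0.17 to 14.4 ± 0.57 FPKM (a log2 difference of 0.87, SE 0.07, by limma at adjusted p = 0.000241). Cd200r1, the myeloid receptor for CD200, rose from 15.7 ± 2.66 to 35.2 ± 2.202 FPKM (a log2 difference of 1.13, SE 0.12) while its ligand gene fell. Among 5 regulatory T cell markers, a list that also holds Ctla4, 3 rose (Ctla4, Il2ra and Tnfrsf18) and none fell. Rescaled to equal totals, 2 passed as higher and none as lower. Foxp3 and Ikzf2 did not pass the test, with changes of 0.28 and -0.19 (limma adjusted p = 0.0619 and 0.264). The markers summed to 24.7 to 28.7 FPKM with PBS and 37.6 to 42.5 FPKM with IL-33. That sum includes Ctla4, so its rise is not separate from the rise of Ctla4. The summed FPKM of basophil and mast cell markers, Cd200r3 among them, was 1.24 to 1.80 with PBS and 14.9 to 27.5 with IL-33. The part of these cells and of the fewer T cell transcripts in the receptor levels was not tested. Cd27, the receptor for CD70, fell from 15.1 ± 4.88 to 3.78 ± 0.79 FPKM. Icos and Cd40lg, also named after their values were seen, fell by 0.52 and 0.73, and Pdcd1, which encodes PD-1, was under the filter with values from 0.46 to 2.70 FPKM.

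Genes of other ligands and receptors, not all of the same families, moved in both directions, as did all genes tested (28% higher and 25.5% lower, or 11.1% and 50.7% with equal totals). On the list of other B7 and related co-signalling genes, 9 were tested, of which 2 rose and 3 fell (median -0.07), but 1 was higher and 6 lower with equal totals. Lgals9, which encodes galectin-9, rose from 49.7 ± 2.59 to 72.8 ± 6.36 FPKM. Btla, an inhibitory receptor, its ligand gene Tnfrsf14 and the adhesion gene Ceacam1 fell by 0.96, 0.66 and 1.12. Among 10 tested TNF-family ligand genes outside the set 2 rose and 4 fell (median -0.30), or 1 and 6 with equal totals. Tnfsf13, the APRIL gene, rose from 10.3 ± 4.14 to 20.3 ± 2.18 FPKM, a call that was lost without IL-33 replicate 1 or replicate 3. Ltb, Tnfsf10 and Tnfsf8 fell by 0.97, 0.70 and 0.50.

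The counts of the next lists stand beside 28% higher and 25.5% lower of all genes tested, or 11.1% and 50.7% with equal totals. Genes that carry CD40 and NF-kappaB signals, 20 in number, were split into 5 higher and 6 lower, with 2 higher and 12 lower under equal totals. Nfkb1 and Chuk fell by 0.62 and 0.36, while the inhibitor gene Tnfaip3 rose by 0.83 and Nfkbia by 0.55, the last without a call under quantile normalization or cyclic loess. Of 17 genes of cytokine inputs to the PD-1 ligand genes, 5 rose and 5 fell (median -0.15), with none higher and 11 lower under equal totals. Stat3 and Il2rg fell by 0.46 each. Csf2ra and Csf2rb, the GM-CSF receptor chains, rose by 0.52 and 0.49, but neither passed with equal totals, nor did Csf2ra with quantile normalization or cyclic loess. Among 8 genes of CD86 and PD-L1 protein turnover 4 rose and none fell (median 0.19), against none higher and 3 lower with equal totals. These were Cops5, Stub1, March8 and Cdk4, with changes of 0.35, 0.25, 0.44 and 0.24, and none of the 4 passed with equal totals. Stub1 and Cdk4 also lost their calls under the 3 other scalings, with a sign that turned for Stub1 with equal totals and for Cdk4 with equal totals, quantile normalization and cyclic loess. March8 lost its call with any 1 IL-33 library or PBS replicate 1 left out, and Cdk4 with any 1 library left out except IL-33 replicate 3.

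Of 16 tested genes of mature migratory dendritic cells 8 rose and 1 (Relb) fell, against 28% and 25.5% of all genes tested. The median change was 0.48 (0.16 with equal totals), with Ccl17 included. With equal totals, quantile normalization or cyclic loess 8 were higher and 3 lower. Ccr7, the receptor that guides dendritic cells to lymph nodes, rose from 157 ± 16.3 to 321 ± 44.1 FPKM (a log2 difference of 1.02, SE 0.12, by limma at adjusted p = 0.000837). Cd83, a surface marker of mature dendritic cells, rose from 211 ± 39.5 to 593 ± 85.3 FPKM (2.81-fold, SE 0.16 on the log2 scale). The chemokine gene Ccl22 rose by 2.24. Ccl17, another chemokine gene, stood at 0.183 to 0.818 FPKM with PBS and 21.2 to 25.8 FPKM with IL-33. It thus passed the expression filter only through the group where it is high, and it is 1 of the 8. Without Ccl17 the median of the list, as deposited, is the change of Il12b, 0.28. The median without Ccl17 under the other scalings was not tested. Cd80, Cd86 and Cd40 are commonly used beside these genes as signs of maturation, and here Cd40 fell while Cd80 and Cd86 did not pass the test.

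**Figure D5:**
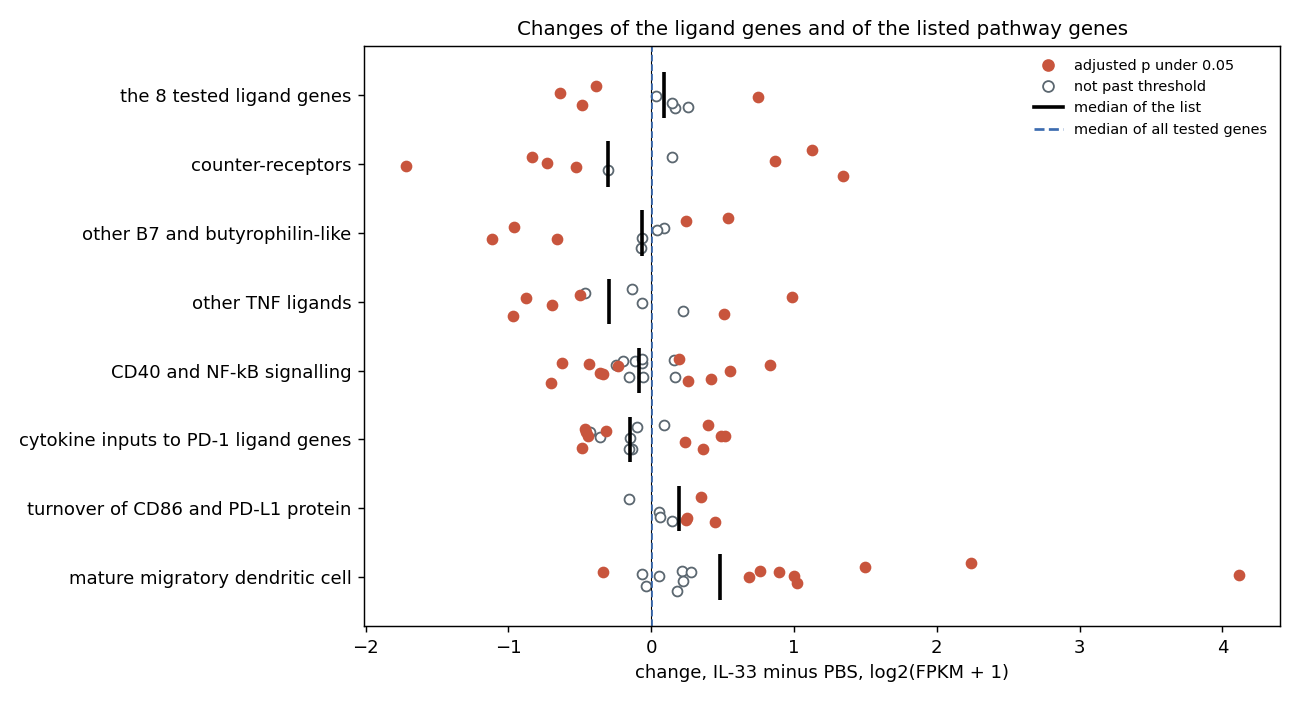
Change of each tested gene (horizontal axis, IL-33 minus PBS, log2(FPKM + 1)) in the ligand set and 7 pathway lists, with filled points for adjusted p under 0.05, a black bar for the list's median and a dashed line for the median of all tested genes. The median of the mature migratory dendritic cell list is 0.48 with Ccl17 included, and that of the 8 tested ligand genes is 0.09.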

How the data were processed

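Per the labels' protocols, RNA was treated with DNase and sequenced from stranded mRNA libraries. The authors deposited 1 table of FPKM values per library. Cuffnorm 2.2.1, TopHat2 2.0.13 with Bowtie2 2.2.3, and SAMtools 0.1.19 are listed, with the build mm10, per the submitters' processing notes. How libraries were scaled, which annotation served and whether counting used strand is not given in the sources used here. FPKM carries no counts, so absolute depth is unknown. Relative depth was read from the steps between values of at most 0.3 FPKM, which reflect the divisor used to scale each library.

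From these values, log2(FPKM + 1) was fitted with limma 3.58.1 in R 4.3.3 (trend on the mean, treatment as the only term, two-sided), after a filter of 1 FPKM in 3 of 6 libraries. The pseudocount of 1 understates the change of low genes. The script was tested on simulated data. Ratios of 2 genes were given an exact permutation test. Pdcd1lg2 and Cd274, Cd80 and Cd86, Cd200 and Cd86, and Icosl and Cd86 were the 4 pairs. Alternatives were other pseudocounts, filters, scalings (among them the geometric mean of 7 dendritic cell markers), variance settings, a replicate block, a minimum 2-fold change and each library left out. The members, lists and tests were chosen with earlier results of these data known. From each of 7 gene lists at most 4 genes with the smallest adjusted p past the threshold are named, and for the 3 members with the smallest adjusted p the 3 nearest profiles, without predicted genes or small RNAs. Vsir and Nectin3 were matched to older symbols. Positions are from GENCODE M21 on GRCm38 and sequences from RefSeq on GRCm38.p6. Tables were made with Python 3.11.15 and pandas 2.3.3.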

Additional observations from a re-analysis of the deposited data

How the results depend on the processing

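Over 19 alternatives Pdcd1lg2, Icosl, Cd40 and Cd200 kept their direction and their side of the threshold, except that none of the tested genes of the set passed a minimum 2-fold change (0 higher and 0 lower), a setting under which 84 of all genes were higher and 5 lower. With no filter 2 of the set were higher, the second being Tnfsf4. With 1 library left out, 1 to 2 were higher and 3 were lower, the second higher gene being Cd274 without IL-33 replicate 1. Among genes that did not pass the test, signs turned with equal totals for Cd80 (-0.16), Cd86 (-0.19), Cd274 (-0.080) and Tnfsf9 (-0.28), for Cd86 also with quantile normalization (-0.13), cyclic loess (-0.14) and without PBS replicate 1 (-0.016, rising to 0.26 without PBS replicate 3), and for Tnfsf9 with dendritic cell marker scaling (-0.024), library weights (-0.12), without IL-33 replicate 1 (-0.11) and without PBS replicate 3 (-0.03), rising to 0.18 without IL-33 replicate 2. The log2 ratio of Cd80 to Cd86 lay between -0.056 (without PBS replicate 3) and its highest value with 1 library left out, 0.10. With equal totals 1280 of all genes were higher and 5840 lower, against 3230 and 2939 as deposited. Libraries with the same replicate number were not treated as pairs: their deviations from the group means correlated at 0.075, -0.054 and 0.089. The best-correlated PBS library bore the same number for IL-33 replicates 1 and 3 but not 2. Some marker sums followed the replicate number in both groups and others did not. B cell markers summed to 500, 437 and 370 FPKM with IL-33 and 819, 448 and 337 FPKM with PBS. T cell markers summed to 66.7, 77.8 and 51.0 FPKM and to 221, 145 and 365 FPKM. With the replicate number as a block, 1 of the set was higher and 3 lower, as without it. With equal group sizes in each block, the block cannot alter the IL-33 minus PBS difference in log2 ratio. That difference stayed at 0.49 for Pdcd1lg2 to Cd274 and -0.78 for Icosl to Cd86, and the exact permutation p with the block was 0.25 for each. Ratio tests cannot pass 0.05 with 3 libraries a group. Low levels limit Cd70 and Tnfsf4, which rest on few fragments if a step is 1 fragment.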
